A study of Homo sapiens with 15 samples.

Results

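The genes of the cereblon ubiquitin ligase, the enzymes that pass ubiquitin to it and 3 zinc finger proteins that it destroys were followed at the transcript level in MM.1S, an established human multiple myeloma cell line. They are CRBN, DDB1, CUL4A, CUL4B, RBX1, UBE2G1, UBE2D3, IKZF1, IKZF3 and ZFP91. The 10 genes were chosen by name for their place in the ligase, at a time when earlier results of these data were known. All 10 had a row in the table and passed the filter on low values, out of 47459 rows and 16104 genes tested.

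Cells received DMSO, A-485, GNE-781, A-485 with GNE-781 (the combination) or dCBP-1 for 6 h, with 3 libraries in each of the 5 groups. Each compound was used at 100 nM, and no group received a cereblon ligand alone, so a part of the dCBP-1 response that comes from cereblon binding cannot be told apart from one that comes from loss of its targets. A-485 blocks the acetyltransferase site of the coactivators CBP and p300. GNE-781 blocks their bromodomains. dCBP-1 links a bromodomain ligand to a cereblon ligand and has CBP and p300 degraded by the ligase described here. All groups share 1 cell line, and nothing in the labels says that the 3 libraries of a group came from separate cultures, so p-values measure the spread between these libraries only. In 2 combination libraries the treatment is spelled GNE-782 and GNE-783, whereas their titles say GNE-781, which was used here. Values are normalized read counts from 3′ end sequencing, in which a transcript gives about the same number of reads whatever its length. RNA was measured and protein was not.

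Cereblon, encoded by CRBN, is the substrate receptor of a cullin ligase. It docks on the adaptor DDB1, which is held by the scaffold CUL4A or its paralog CUL4B, and the scaffold's other end carries the RING protein RBX1, where ubiquitin-charged conjugating enzymes land. For this ligase UBE2D3 is known to place the first ubiquitin and UBE2G1 to extend the chain. Thalidomide analogs fill a pocket of cereblon and turn its surface toward zinc fingers of Ikaros (IKZF1), Aiolos (IKZF3) and ZFP91. Ikaros and Aiolos are lymphoid transcription factors on which myeloma cells depend, and their loss underlies the action of lenalidomide and pomalidomide in this disease.

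The finger of each substrate that cereblon takes hold of is given here because it is the feature the 3 proteins share and the link between these genes and a cereblon-based degrader. The DNA is the coding strand of the GENCODE 29 transcripts, 5′ to 3′, 63 bases or 21 codons, with capitals at the codons of the zinc-binding cysteines and histidines and of the glycine that follows the second cysteine. The IKZF1 finger lies in coding exon sequence at chr7:50382557-50382619 on the plus strand of GRCh38, in exon 5 of the transcript, and covers codons 147 to 167. The IKZF3 finger lies at chr17:39791504-39791566 on the minus strand, also in exon 5, and covers codons 148 to 168. The ZFP91 finger lies at chr11:58617197-58617259 on the plus strand, in exon 11, and covers codons 402 to 422.
IKZF1: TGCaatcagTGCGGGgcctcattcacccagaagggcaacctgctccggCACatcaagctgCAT
IKZF3: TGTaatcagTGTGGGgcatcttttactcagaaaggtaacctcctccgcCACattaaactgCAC
ZFP91: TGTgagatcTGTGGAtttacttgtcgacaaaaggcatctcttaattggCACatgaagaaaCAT
The IKZF1 and IKZF3 fingers shared 50 of 63 bases (79.4%) and encoded the same residue at 21 of 21 codons, with different codons at 13 of them. The ZFP91 finger shared 30 of 63 bases (47.6%) with each of the others and the same residue at 9 of 21 codons. The glycine codon after the second cysteine was present in each of the 3.

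Depth ran from 13.1 to 18.29 M reads per library. DMSO replicates 1 and 2 stood apart: their mitochondrial read shares were 23.1% and 19.7%, against 14.3% to 17.0% in the other 13 libraries. Thinned to 13.1 M reads each, they held reads for 16287 and 17386 genes, against 18727 to 20578 in the others. Results against DMSO are therefore also given without these 2 libraries together, which leaves DMSO replicate 3 alone and assumes that it varies like the other groups. All 10 plasma and myeloma cell markers were present, with a summed level of 80900 to 86977 in DMSO. It was 59790 to 74094 with A-485, 44779 to 50463 with GNE-781, 39967 to 50667 with the combination and 26226 to 27995 with dCBP-1. In that order of groups 4, 8, 9 and 9 of the 10 markers fell, beside 1.79%, 8.81%, 9.6% and 18.5% of all genes called lower. CD38 and IRF4, described further on, are among the 10. Earlier B cell markers summed to 212 to 222 in DMSO and to less in all treated groups. The sums were 151 to 171 with A-485, 157 to 169 with GNE-781, 178 to 184 with the combination and 156 to 159 with dCBP-1. Of the 4 tested, 1 was called lower with dCBP-1. Mean CR2 was 100 in DMSO and 52.1 with dCBP-1, and mean CD79B 103 and 96.2. T cell markers summed to at most 28.5 and myeloid markers to at most 34.0 in any library, with CD3D, CSF1R, FCGR3A and S100A8 at 0. Epithelial and stromal markers summed to 12.5 to 26.7 in DMSO, 23.9 to 49.8 with the combination and 27.0 to 37.9 with dCBP-1. KRT19 was at 0. KRT18 averaged 0 in DMSO and 20.5 with dCBP-1, and EPCAM and COL1A1 also had higher means with dCBP-1. KRT8, CDH1, COL1A2 and DCN had lower means with dCBP-1 than in DMSO. Whether these differences play a part in the results below was not tested.

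dCBP-1 lowered IKZF3 far more than any other of the 10 transcripts, to 0.136 of its DMSO level. UBE2G1 and IKZF1 also fell, to 0.430 and 0.513 of DMSO, while CRBN itself was not called changed by any treatment. GNE-781 and the combination lowered IKZF1, IKZF3 and RBX1 by smaller amounts and raised ZFP91, and GNE-781 raised DDB1. A change was called at a limma adjusted p below 0.05, with adjustment over all genes tested. Against DMSO, 7 of the 10 genes were called with dCBP-1, 2 higher and 5 lower, where 37.8% of all genes tested were called, 19.3% higher and 18.5% lower. With the combination 5 were called (1 higher, 4 lower) against a background of 21.0% (11.4% higher, 9.6% lower), and with GNE-781 5 (2 higher, 3 lower) against 16.6% (7.82% and 8.81%). With A-485 0 were called beside 2.14%: 3 of the 10 had an unadjusted p below 0.05, and edgeR and DESeq2 called 1 each. Without DMSO replicates 1 and 2 the counts were 5 for dCBP-1, 3 for the combination, 2 for GNE-781 and 0 for A-485, and none of these calls was higher. All genes were then called at 23.5%, 6.61%, 5.48% and 0.0745%. The median log2 fold change of the 10 genes was -0.06 for A-485, -0.14 for GNE-781, -0.18 for the combination and -0.30 for dCBP-1. Over all genes tested it was -0.03, 0.07, 0.09 and 0.07. The 4 comparisons share the same DMSO libraries, so their agreement is not independent.

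**Figure D1:**
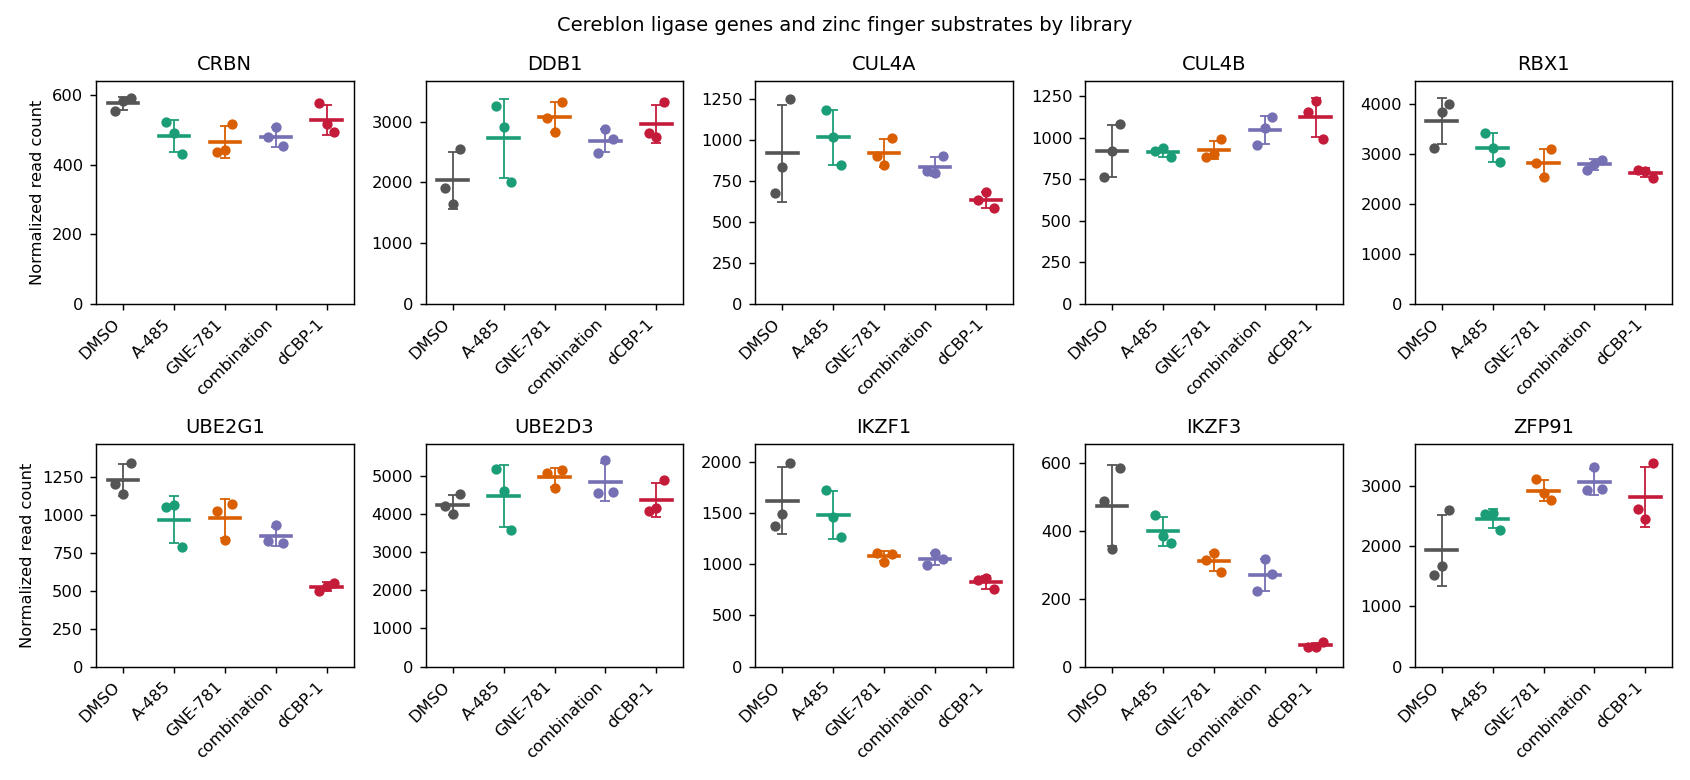
Normalized read count of each gene in every library (points), with the group mean (bar) and SD (whiskers), by treatment, n = 3 libraries per group. In the IKZF3 panel the dCBP-1 libraries lie between 56.8 and 71.1 and every other library at 223 or above; CRBN spans 433 to 591 over all libraries.

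**Figure D2:**
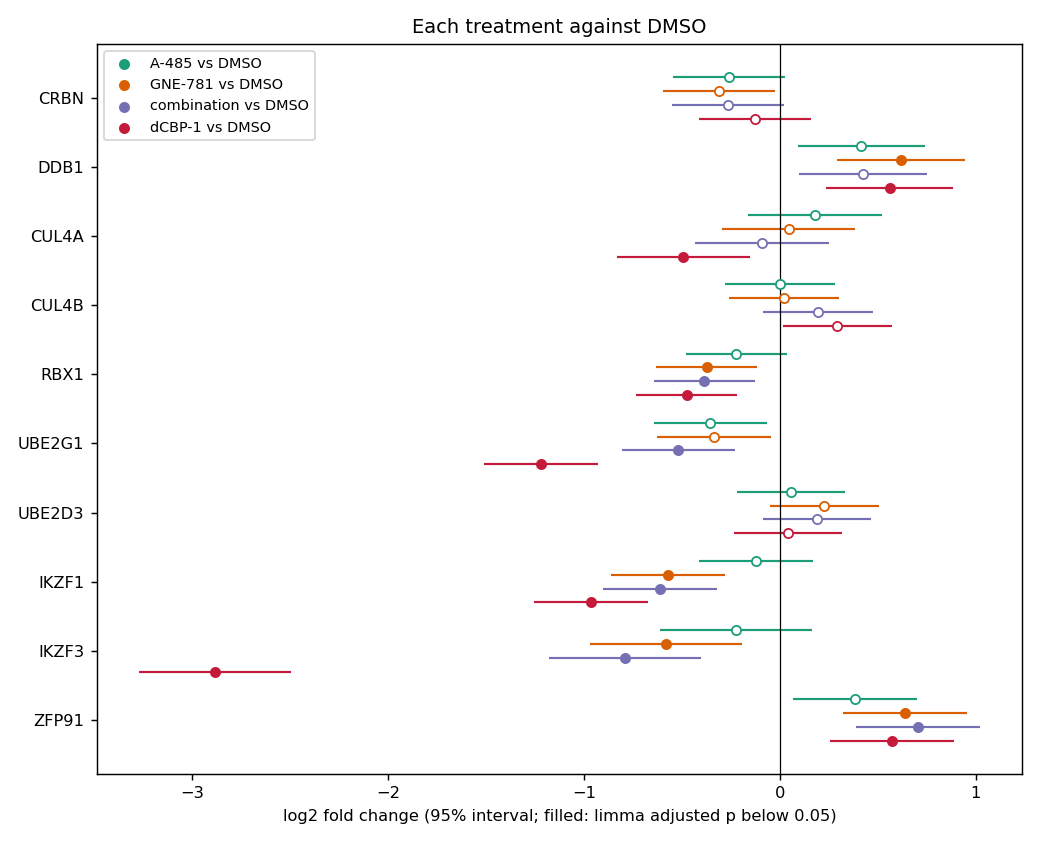
Log2 fold change of each gene against DMSO (horizontal axis) for the 4 treatments, with 95% intervals from the limma model; filled points have an adjusted p below 0.05. The dCBP-1 point of IKZF3 lies at -2.88, apart from all others, and the 4 intervals of CRBN lie between -0.60 and 0.16.

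CRBN (ENSG00000113851), the receptor that the degrader's cereblon ligand engages, stayed between 433 and 591 in every library. Its normalized counts were 554, 584 and 591 in DMSO replicates 1 to 3, 523, 493 and 433 with A-485, 436, 443 and 519 with GNE-781, 479, 509 and 453 with the combination, and 577, 518 and 493 with dCBP-1. The DMSO libraries lay above all A-485, GNE-781 and combination libraries and overlapped those of dCBP-1. Group means ran from 577 ± 19.5 (SD, n = 3) in DMSO through 529 ± 43.3 with dCBP-1 to 466 ± 45.8 with GNE-781. With dCBP-1 the log2 fold change was -0.13 ± 0.14 (SE; limma adjusted p = 0.516), with a 95% interval of -0.41 to 0.16. With A-485, GNE-781 and the combination it was -0.26, -0.31 and -0.26 (adjusted p = 0.377, 0.128 and 0.187). The GNE-781 and combination differences were called with median-ratio scaling (-0.33 and -0.31, adjusted p = 0.0385 and 0.0471) and with DESeq2 (adjusted p = 0.025 and 0.0348). Neighbours in the order of group means overlapped throughout. In a bulk lysate, fewer cells of a type and less RNA per cell cannot be told apart.

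DDB1 (ENSG00000167986), the adaptor between cereblon and the cullin, was higher with GNE-781 and dCBP-1 than in DMSO. It stood at 1911, 1636 and 2549 in DMSO, 3262, 2905 and 2006 with A-485, 3068, 2830 and 3327 with GNE-781, 2483, 2872 and 2710 with the combination, and 2819, 2742 and 3318 with dCBP-1. The lowest libraries were DMSO replicates 1 and 2, and DMSO replicate 3 overlapped the combination but not GNE-781 or dCBP-1. The rise was 0.62 ± 0.16 on the log2 scale with GNE-781 (adjusted p = 0.00724) and 0.56 ± 0.16 with dCBP-1 (adjusted p = 0.00574). The combination gave 0.43 ± 0.16 (adjusted p = 0.0549) and A-485 0.42 ± 0.16 (adjusted p = 0.181), and both were called under TMM, median-ratio and quantile scaling, edgeR and DESeq2, and without DMSO replicate 3. Against DMSO replicate 3 alone the combination and A-485 values were 0.07 and 0.07 (adjusted p = 0.872 and 0.918). The GNE-781 and dCBP-1 values were then 0.27 and 0.21 (adjusted p = 0.511 and 0.492), and both calls also ended without DMSO replicate 2 (0.48 and 0.42). The size of the DDB1 rise and its calls thus depended on the DMSO libraries used. Whether the rise comes from the 2 that stood apart was not tested.

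Of the scaffold paralogs, CUL4A was called lower with dCBP-1 and CUL4B was not called. CUL4A (ENSG00000139842) read 678, 834 and 1250 in DMSO, 1184, 1022 and 848 with A-485, 901, 849 and 1014 with GNE-781, 814, 798 and 903 with the combination, and 634, 685 and 585 with dCBP-1. The dCBP-1 libraries lay below all inhibitor libraries and overlapped DMSO replicate 1 alone. CUL4A fell by 0.49 on the log2 scale against DMSO (SE 0.17, adjusted p = 0.0201). That call ended in a fit of the DMSO and dCBP-1 libraries alone (adjusted p = 0.0613), without DMSO replicate 3 (-0.25) and without dCBP-1 replicate 3 (-0.43), while against DMSO replicate 3 alone the value was -0.98 (adjusted p = 0.000377). Against A-485 CUL4A was lower by -0.67 ± 0.17 (adjusted p = 0.00319), a call kept in all alternatives run. In the other 3 treatments it was not called against DMSO, at 0.18, 0.05 and -0.09.

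CUL4B (ENSG00000158290) read 763, 919 and 1080 in DMSO, 918, 936 and 883 with A-485, 887, 902 and 989 with GNE-781, 955, 1058 and 1125 with the combination, and 1154, 1223 and 991 with dCBP-1. The groups overlapped, except that dCBP-1 lay above A-485 and GNE-781 and the combination lay above A-485. Its log2 fold change with dCBP-1 against DMSO was 0.29 ± 0.14, with a 95% interval of 0.01 to 0.57 and an adjusted p of 0.091. It was called under TMM, median-ratio and quantile scaling, edgeR, DESeq2 and without DMSO replicate 3 (0.42), and was 0.05 (adjusted p = 0.873) against DMSO replicate 3 alone.

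A ratio of the paralogs within each library does not depend on the scaling of that library. It was examined after the values had been seen. The log2 ratio of CUL4B to CUL4A was 0.17, 0.14 and -0.21 in DMSO, -0.37, -0.13 and 0.06 with A-485, and -0.02, 0.09 and -0.04 with GNE-781. It was 0.23, 0.41 and 0.32 with the combination and 0.86, 0.84 and 0.76 with dCBP-1. Both of these groups lay wholly above DMSO, by 0.28 and 0.79 on average, each with an exact two-sided permutation p of 0.1, which is the smallest that 3 against 3 libraries allow (0.267 when adjusted over 8 ratio comparisons). Against DMSO replicate 3 alone the dCBP-1 difference was 1.03.

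RBX1 (ENSG00000100387), the RING subunit shared by most cullin ligases, was lower with the bromodomain inhibitor and the degrader. Its counts were 3123, 3838 and 4003 in DMSO, 3419, 3118 and 2836 with A-485, 2812, 2544 and 3094 with GNE-781, 2675, 2801 and 2883 with the combination, and 2680, 2659 and 2514 with dCBP-1. The GNE-781, combination and dCBP-1 libraries lay below all DMSO libraries, by a small margin from DMSO replicate 1. RBX1 fell by 0.47 on the log2 scale with dCBP-1 (SE 0.13, adjusted p = 0.00347), and this call held in all alternatives run. The GNE-781 and combination values, -0.37 and -0.38 (adjusted p = 0.0406 and 0.0287), lost their calls without DMSO replicate 2 (-0.33 and -0.34, adjusted p = 0.148 and 0.114) or DMSO replicate 3 (-0.30 and -0.31, adjusted p = 0.0909 and 0.0717). Against DMSO replicate 3 alone the values were larger, -0.51 and -0.52, and also not called (adjusted p = 0.064 and 0.0505). The calls ended too without GNE-781 replicate 1 or 2 (-0.37 and -0.30, adjusted p = 0.111 and 0.187) or combination replicate 1 or 2 (-0.35 and -0.39, adjusted p = 0.0782 and 0.0799), with no filter and with only the groups compared. dCBP-1 did not differ from the combination beyond the error (-0.09, interval -0.35 to 0.17).

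UBE2G1 (ENSG00000132388), which lengthens the ubiquitin chains that cereblon substrates receive, fell most among the ligase machinery. It stood at 1202, 1140 and 1344 in DMSO, 1051, 1063 and 788 with A-485, 1028, 833 and 1069 with GNE-781, 830, 931 and 811 with the combination, and 495, 533 and 551 with dCBP-1. Every treated library lay below every DMSO library, and the dCBP-1 libraries lay below all others. The mean went from 1229 ± 104 in DMSO to 527 ± 28.5 with dCBP-1 (n = 3 each), a log2 fold change of -1.22 ± 0.14 (adjusted p = 4.87e-08). The combination gave -0.52 ± 0.14 (adjusted p = 0.00906). A-485 and GNE-781 gave -0.35 and -0.34 and were not called (adjusted p = 0.209 and 0.102), although TMM and median-ratio scaling, edgeR and DESeq2 called GNE-781. dCBP-1 was below the combination by -0.70 ± 0.14 (interval -0.99 to -0.41, adjusted p = 0.00106), below GNE-781 by -0.88 (adjusted p = 3.7e-05) and below A-485 by -0.86 (adjusted p = 2.8e-05). The 3 differences from the inhibitor groups and the dCBP-1 fall from DMSO kept their calls in all alternatives run.

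UBE2D3 (ENSG00000109332), the enzyme that starts the chain, showed no such fall. Its libraries read 4225, 3992 and 4515 in DMSO, 5193, 4616 and 3583 with A-485, 5068, 4689 and 5153 with GNE-781, 4548, 5423 and 4577 with the combination, and 4092, 4150 and 4889 with dCBP-1. GNE-781 and the combination lay just above the highest DMSO library, and dCBP-1 overlapped DMSO. With dCBP-1 the log2 fold change was 0.04 ± 0.14 (interval -0.23 to 0.32, adjusted p = 0.837), and no comparison called UBE2D3 except under quantile normalization, where GNE-781, the combination and dCBP-1 gave 0.33, 0.30 and 0.25. Against the combination dCBP-1 gave -0.15, with an interval of -0.42 to 0.13.

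IKZF1 (ENSG00000185811), the gene of Ikaros, fell with GNE-781 and further with dCBP-1. The counts were 1374, 1494 and 1992 in DMSO, 1729, 1458 and 1263 with A-485, 1110, 1023 and 1098 with GNE-781, 989, 1110 and 1046 with the combination, and 845, 868 and 754 with dCBP-1. GNE-781, combination and dCBP-1 libraries all lay below DMSO and A-485, and the dCBP-1 libraries lay below every other. Mean levels were 1620 ± 327, 1483 ± 234, 1077 ± 47.0, 1048 ± 60.7 and 822 ± 60.0 in that order of groups (n = 3 each). The falls from DMSO were 0.57 on the log2 scale with GNE-781 (adjusted p = 0.00587), 0.61 with the combination (0.00256) and 0.96 with dCBP-1 (3.2e-06), each with an SE of 0.14. All 3 calls held in all alternatives run, and against DMSO replicate 3 alone the values were -0.89, -0.93 and -1.28. A-485 gave -0.12 (interval -0.41 to 0.17, adjusted p = 0.741).

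The further step of IKZF1 from the inhibitors to the degrader was called against A-485 (-0.84 ± 0.14, adjusted p = 4.31e-05) but not against GNE-781 or the combination. There it was -0.39 (interval -0.68 to -0.10, adjusted p = 0.0858) and -0.35 (interval -0.64 to -0.06, adjusted p = 0.176). The GNE-781 difference was called under TMM, median-ratio and quantile scaling, edgeR, DESeq2 and with only the groups compared. DESeq2 also called the difference from the combination (adjusted p = 0.0349).

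IKZF3 (ENSG00000161405), the gene of Aiolos, had the largest change of the 10. It read 490, 348 and 585 in DMSO, 446, 385 and 366 with A-485, 316, 337 and 280 with GNE-781, and 223, 317 and 273 with the combination. With dCBP-1 it read 56.8, 59.0 and 71.1, so that even the lowest library of any other group was more than 3-fold above the highest dCBP-1 library. Mean levels were 474 ± 119 in DMSO, 399 ± 41.8 with A-485, 311 ± 28.8 with GNE-781, 271 ± 47.0 with the combination and 62.3 ± 7.73 with dCBP-1. Against DMSO the log2 fold change with dCBP-1 was -2.88 ± 0.19 (interval -3.27 to -2.50, adjusted p = 3.17e-13), a 7.38-fold lower level. Over all alternatives run it stayed between -3.22 and -2.72.

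The combination lowered IKZF3 by 0.79 on the log2 scale (SE 0.19, adjusted p = 0.00339), a call kept in all alternatives. GNE-781 gave -0.58 ± 0.19 (adjusted p = 0.0336), which was no longer called with no filter (0.0585) or without DMSO replicate 1 (-0.54, 0.0924) or 3 (-0.41, 0.134). It was not called either without GNE-781 replicate 1 (-0.59, 0.0865), 2 (-0.64, 0.0586) or 3 (-0.51, 0.127). Against DMSO replicate 3 alone it was called, at -0.91 (adjusted p = 0.0227). A-485 was not called, at -0.22 (interval -0.61 to 0.17). At the same dose and time dCBP-1 left IKZF3 4.27-fold below the combination (-2.10 ± 0.19, adjusted p = 1.46e-09), 4.93-fold below GNE-781 (-2.30, adjusted p = 1.57e-10) and 6.33-fold below A-485 (-2.66, adjusted p = 2.82e-12). These 3 calls also held in all alternatives run.

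**Figure D3:**
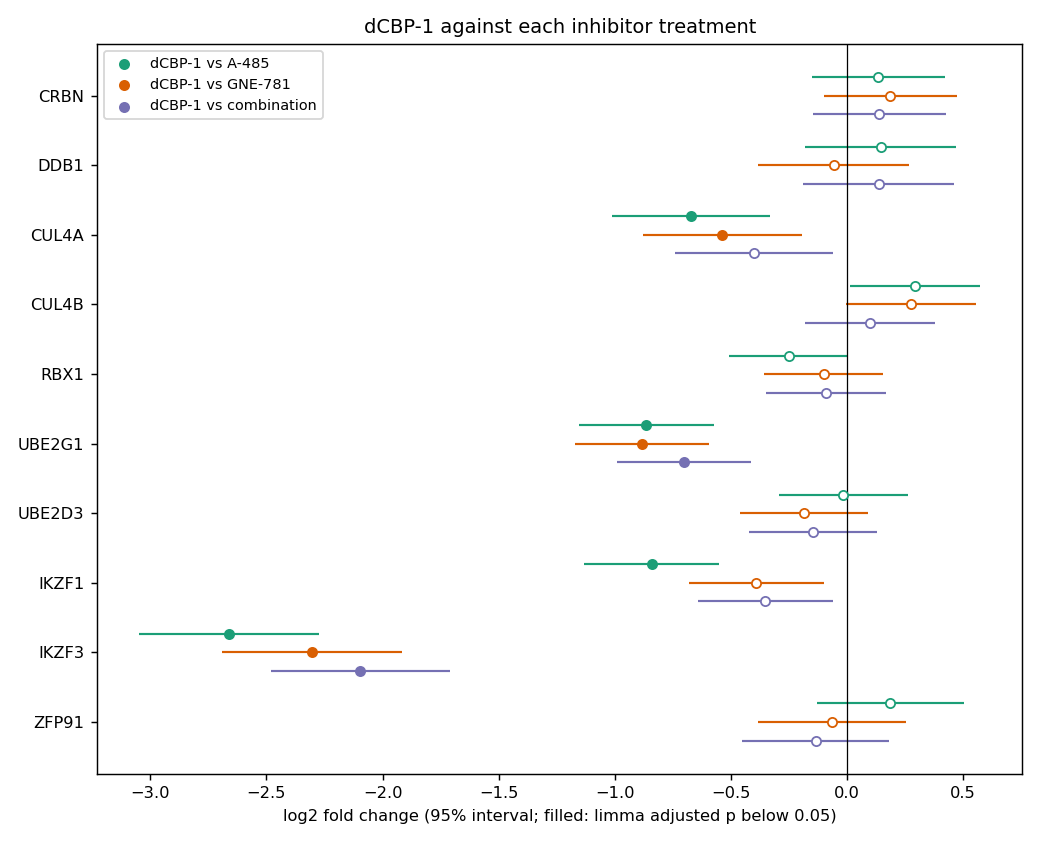
Log2 fold change of dCBP-1 against A-485, GNE-781 and the combination (horizontal axis, 95% intervals, filled where the limma adjusted p is below 0.05). IKZF3 lies between -2.66 and -2.10 and UBE2G1 between -0.88 and -0.70 in all 3 comparisons. The intervals of CRBN, DDB1, RBX1, UBE2D3 and ZFP91 cross 0 in all 3.

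Ikaros and Aiolos are close paralogs with the same finger residues, and the 2 transcripts stood in another proportion with dCBP-1 than in the other groups. The log2 ratio of IKZF3 to IKZF1 within a library, also examined after the values had been seen, was -1.49, -2.10 and -1.77 in DMSO, -1.95, -1.92 and -1.79 with A-485, -1.81, -1.60 and -1.97 with GNE-781 and -2.15, -1.81 and -1.94 with the combination. With dCBP-1 it was -3.89, -3.88 and -3.41. The inhibitor groups overlapped DMSO, and the dCBP-1 group did not overlap any other. The dCBP-1 mean differed from DMSO by -1.94, with an exact two-sided permutation p of 0.1, the smallest possible here (0.267 after Benjamini-Hochberg adjustment over the 8 ratio comparisons of both gene pairs). The inhibitor groups differed by -0.10, -0.01 and -0.18 (exact p = 0.6, 1.0 and 0.4).

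**Figure D4:**
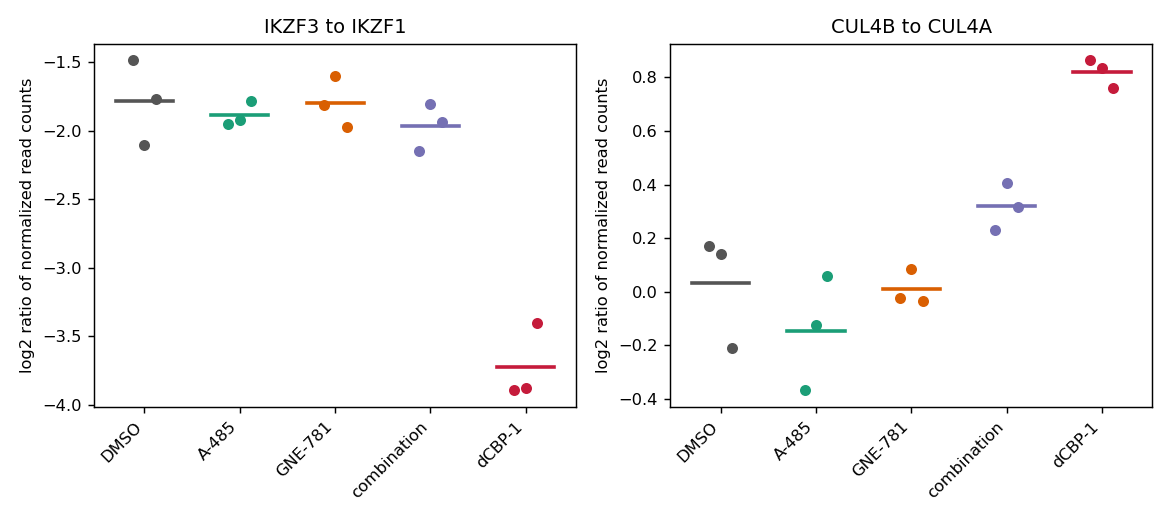
Log2 ratio of normalized read counts within each library (points; bars are group means, n = 3) for IKZF3 to IKZF1 and for CUL4B to CUL4A. The dCBP-1 libraries lie at -3.41 or below in the first panel and at 0.76 or above in the second, apart from all other libraries in both.

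ZFP91 (ENSG00000186660), a zinc finger protein that is itself a ubiquitin ligase and a known target of lenalidomide-bound cereblon, was called higher with GNE-781, the combination and dCBP-1, and was not called with A-485. Its counts were 1516, 1662 and 2601 in DMSO, 2527, 2552 and 2272 with A-485, 3116, 2875 and 2763 with GNE-781, 2930, 3310 and 2946 with the combination, and 2610, 2444 and 3383 with dCBP-1. DMSO replicates 1 and 2 lay below every treated library, and DMSO replicate 3 lay above the A-485 libraries, within the range of dCBP-1 and below GNE-781 and the combination. The rises were 0.64 on the log2 scale with GNE-781 (adjusted p = 0.00489), 0.71 with the combination (0.0015) and 0.57 with dCBP-1 (0.00408), each with an SE of 0.16. A-485 gave 0.39 (adjusted p = 0.212), and 0.62 (adjusted p = 0.00519) without DMSO replicate 3. Against DMSO replicate 3 alone the A-485 value was -0.09 (adjusted p = 0.866), and the GNE-781, combination and dCBP-1 values were 0.16, 0.23 and 0.10 (adjusted p = 0.668, 0.491 and 0.737). dCBP-1 did not differ from the combination (-0.13, interval -0.45 to 0.18) or GNE-781 (-0.07, interval -0.38 to 0.25) beyond the error.

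Across the 3 comparisons of the degrader with an inhibitor group, calls were all in the direction of lower with dCBP-1. IKZF3 and UBE2G1 were called against the combination, 2 of 10 where 6.17% of all genes tested were called and 5.61% were lower. IKZF3, UBE2G1 and CUL4A were called against GNE-781, 3 of 10 beside 9.31% (7.13% lower), and these with IKZF1 against A-485, 4 of 10 beside 24.5% (11.6% lower). The lean of the genes called toward lower against the combination and GNE-781 depends on the scaling. Of the genes called, 8.96% were higher against the combination and 23.5% against GNE-781, and with TMM scaling 24.7% and 33.8%. Against A-485 the calls were nearer an even split, with 52.6% higher, and 46.7% with TMM scaling. The CUL4A call against GNE-781 (-0.54, adjusted p = 0.0376) ended without any 1 of the 6 libraries compared, at adjusted p-values of 0.0542 to 0.173, and with no filter (0.0862). CUL4A against the combination was -0.40, with an interval of -0.74 to -0.06 and an adjusted p of 0.194. For CRBN the intervals of dCBP-1 against the combination, GNE-781 and A-485 were -0.15 to 0.42, -0.10 to 0.47 and -0.15 to 0.42.

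By genes called, the inhibitor groups that were compared differed less from each other than dCBP-1 did from them. The combination was not tested against A-485. No member was called between the combination and GNE-781, where 0.0% of all genes were called by limma. There, 494 genes but none of the 10 had an unadjusted p below 0.05, edgeR called 0 genes and DESeq2 called 7. Between GNE-781 and A-485, 0 of 10 were called beside 1.0% of all genes. IKZF1 was the single member with an unadjusted p below 0.05 there (-0.45 ± 0.14, adjusted p = 0.139), and it was called under TMM (-0.53, adjusted p = 0.00465), median-ratio and quantile scaling, edgeR and DESeq2.

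Beyond cereblon, DDB1 carries other substrate receptors. Of 25 genes listed for them, all tested, 6 rose and 5 fell with dCBP-1 against DMSO, beside 37.8% of all genes called. The median log2 fold change was 0.07. The list also holds DDA1, a DDB1-associated protein that is not itself a receptor and was not called. DCAF4 fell from 155, 165 and 186 in DMSO to 59.6, 42.8 and 43.9 with dCBP-1, by 1.78 on the log2 scale (SE 0.23, adjusted p = 4.01e-07), and was also below the combination (-1.04, adjusted p = 0.00317). DDB2, the receptor that recognizes ultraviolet damage in DNA, rose by 0.65, DCAF7 rose by 0.73 and FBXW5 fell by 0.64. With A-485 0 of the 25 were called against DMSO, beside 2.14% of all genes. For dCBP-1 against the combination DCAF4 was the 1 called of 25, beside 6.17% of all genes.

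Cullins are switched on by attachment of NEDD8, and 25 of 26 genes of this pathway and its regulators were tested. With dCBP-1 1 rose and 4 fell (median -0.02), 5 of 25 beside 37.8% of all genes called. With A-485 2 of 25 fell, NEDD8 and UBE2M, beside 2.14%. NEDD8 read 2926, 3754 and 2811 in DMSO, 2113, 2322 and 2104 with A-485, 1877, 1513 and 1863 with GNE-781, 2126, 2061 and 1847 with the combination, and 1997, 1872 and 1720 with dCBP-1. Every treated library was below every DMSO library, with log2 fold changes of -0.53, -0.85, -0.64 and -0.75 (adjusted p = 0.0295, 4.95e-05, 0.000781 and 3.69e-05). UBE2M, the NEDD8 conjugating enzyme for most cullins, fell by 1.01 with dCBP-1. Its DMSO replicates 1 and 2 stood at 1762 and 2042 and replicate 3 at 956, against which alone the value was -0.36 (adjusted p = 0.209). DCUN1D5 and UBE2F, which act in the same step, fell by 0.74 and 0.56, and UBE2F lost its call without DMSO replicate 1 (-0.41) or dCBP-1 replicate 3 (-0.50). Without DMSO replicates 1 and 2 the list gave 3 calls, all lower, beside 23.5% of all genes.

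**Figure D5:**
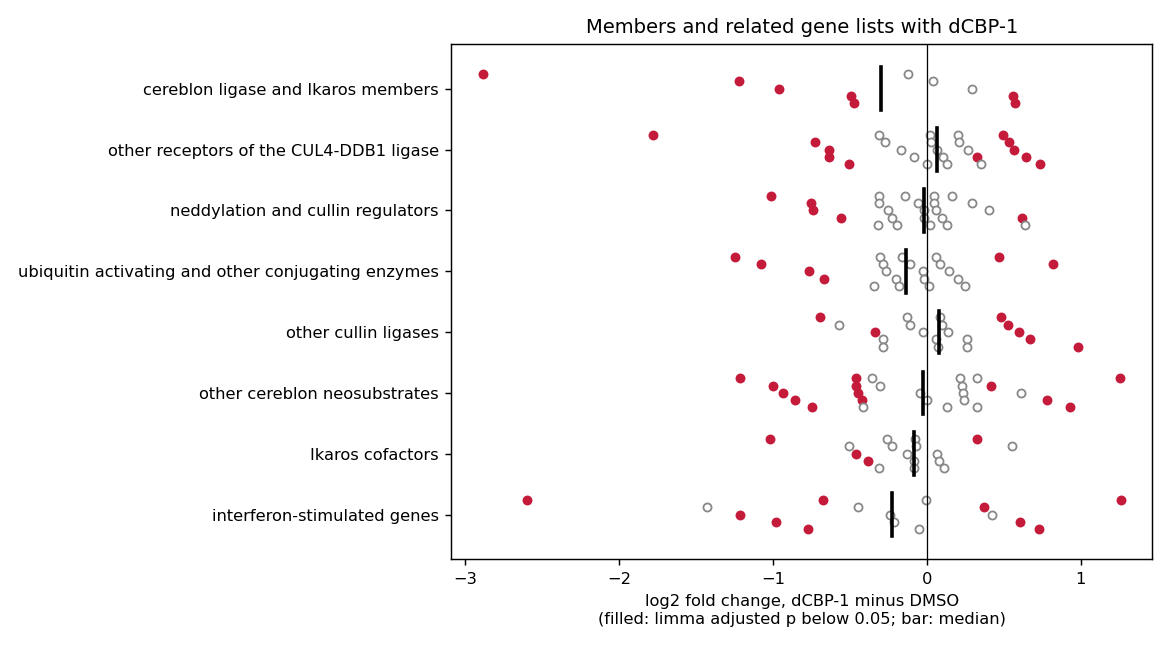
Log2 fold change of dCBP-1 against DMSO (horizontal axis) for the 10 genes and for the tested genes of 7 related lists; filled points have a limma adjusted p below 0.05 and bars are medians. IKZF3 at -2.88 is the lowest point of its row, and list medians lie between -0.30 and 0.08.

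Of 22 ubiquitin activating and other conjugating enzyme genes, 2 rose and 4 fell with dCBP-1 (median -0.14), 6 of 22 beside 37.8% of all genes. UBE2H, the partner of the CTLH ligase, went from 3951, 4098 and 5162 in DMSO to 2241, 2076 and 1905 with dCBP-1 and lay below all inhibitor libraries (lowest 3181). Its log2 fold change was -1.08 ± 0.13 against DMSO (adjusted p = 5.18e-08) and -0.71 against the combination (adjusted p = 0.000187), close in size to the -1.22 and -0.70 of UBE2G1. UBE2E1 fell by 0.77 against DMSO and by 0.69 against the combination (adjusted p = 0.00114), UBE2V1 fell by 1.25 against DMSO, and UBE2B rose by 0.82. Of 20 genes of other cullin ligases 5 rose and 2 fell with dCBP-1 (median 0.08), 7 of 20 beside the same 37.8%. Among them were BTRC (0.98), KLHL12 (0.67) and CUL5 (0.60), which rose, and ELOC (-0.70), which fell. CUL5 gave 0.51 (adjusted p = 0.0605) against DMSO replicate 3 alone.

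Other proteins that drug-bound cereblon can recruit were listed as 30 genes, of which 26 were tested. With dCBP-1 4 rose and 9 fell (median -0.02), beside the background of 37.8%, and 8 were called, 2 higher and 6 lower, without DMSO replicates 1 and 2 (beside 23.5%). GSPT1, a translation termination factor, stood at 5486, 6148 and 7141 in DMSO, 6675, 5920 and 5651 with A-485, 4863, 4846 and 4742 with GNE-781, 4183, 4356 and 4796 with the combination, and 3266, 3142 and 2933 with dCBP-1. The dCBP-1 libraries lay below all others, with a mean of 3114 against 6258 in DMSO (adjusted p = 1.88e-07) and a log2 fold change of -0.51 from the combination (adjusted p = 0.00788). RNF166, ZNF692 and ARID2 fell by 1.21, 0.86 and 0.75. IKZF2 and IKZF4, Ikaros relatives outside the naming rule that were picked out after their values were seen, rose with dCBP-1 by 1.25 and 0.78 (adjusted p = 0.000514 and 0.000598). A further relative, IKZF5, is also outside that rule and is counted with the cofactor genes below. It was not called with dCBP-1 (-0.13, limma adjusted p = 0.659). Of 8 tested genes of cereblon's partners outside the ligase, 1 rose and 1 fell with dCBP-1, beside 37.8% of all genes called. MEIS2, an endogenous substrate, rose by 1.05. BSG, the membrane glycoprotein that cereblon chaperones, fell by 0.56, though only by 0.44 against DMSO replicate 3 alone.

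Ikaros and Aiolos act with the NuRD and CtBP corepressors. Of 17 cofactor genes 1 rose and 3 fell with dCBP-1 (median -0.08), 4 of 17 beside 37.8% of all genes. MBD3, a NuRD subunit, fell by 1.02 (adjusted p = 2.81e-06), and CTBP1 and GATAD2A by 0.46 and 0.38. HDAC1 rose by 0.33. The calls of CTBP1, GATAD2A and HDAC1 ended without DMSO replicate 3 (CTBP1 -0.33, GATAD2A -0.18) or DMSO replicate 2 (HDAC1 0.28), among other libraries left out. IRF4, the myeloma survival factor that lies downstream of Ikaros and Aiolos, and MYC both fell with dCBP-1, with log2 fold changes of -3.35 and -8.17, and with GNE-781 (-1.44 and -1.75). MYC stood near the floor with dCBP-1, at 1 to 8 reads per library. Its value against DMSO ran from -8.56 to -7.26 over all alternatives run.

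Loss of Ikaros and Aiolos protein is known to raise interferon-stimulated genes and CD38 in myeloma cells. Of 16 such genes tested out of 18, 4 rose and 5 fell with dCBP-1 (median -0.23), beside 19.3% of all genes higher and 18.5% lower. Without DMSO replicates 1 and 2 there were 5 calls, 2 higher and 3 lower, beside 23.5% of all genes called. CD38 fell by 1.21 (adjusted p = 1.76e-07), from 913, 800 and 1152 in DMSO to 393, 391 and 439, and BST2 fell by 0.98. TNFSF10, the ligand TRAIL, rose by 1.26, from 95.1, 74.9 and 123 to 209, 246 and 238, and IRF7 rose by 0.73. The list moved in both directions. Of the genes for the degrader's own targets, CREBBP rose by 0.85 with dCBP-1 (adjusted p = 2.93e-05), 0.55 with GNE-781 and 0.58 with the combination. EP300 rose by 0.41 (adjusted p = 0.0488), a call lost without DMSO replicate 2 (0.39) or 3 (0.35), without dCBP-1 replicate 3 (0.21) and in other alternatives.

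The genes whose log2 values followed a member most closely over the 15 libraries were sought among the 8042 genes with a mean log2 value of at least the median. The libraries share groups and quality, so the correlations are descriptions. For IKZF3 they were SETBP1, IFNG-AS1 and CCDC88C, each with a Pearson r of 0.99. SETBP1 averaged 2651 in DMSO and 391 with dCBP-1, and IFNG-AS1 1194 and 298. For IKZF1 they were BAG5 and DUSP22 (r = 0.97) and RASSF4 (r = 0.96), which averaged 3309 in DMSO and 1004 with dCBP-1. For ZFP91 they were DYNC1H1 (r = 0.98), LSM2 (0.97) and PSMB7 (0.97), which were lowest in DMSO. CRBN was followed less closely, by TACC3 and CHPF (r = 0.91) and TEX261 (r = 0.90), all highest in DMSO.

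Rows that could share reads with a member were few, and all but TRNT1 were low. TRNT1, whose 3′ end meets that of CRBN on the opposite strand in GENCODE 29, read 98.0 to 226, beside 433 to 591 for CRBN. It was not called with dCBP-1 (-0.27, limma adjusted p = 0.386). The strand setting of the counting is not stated, so reads of the 2 genes near their shared end cannot be told apart. The ZFP91-CNTF readthrough row was at 0 in every library. The pseudogene RBX1P2 read 22.1, 17.9 and 6.07 in DMSO and at most 8.29 in the treated libraries, far under RBX1. The pseudogene and antisense rows RBX1P1, UBE2D3P1 to UBE2D3P4, CUL4AP1 and UBE2D3-AS1 read at most 9.49.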

How the data were processed

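RNA from 15 libraries of MM.1S cells was sequenced from 3′ ends (QuantSeq), per the labels' protocols. The deposited values are a normalized signal per gene on hg19, per the submitters' processing notes; the aligner, counter, annotation and normalization are not given in the sources used here. Tested on the values, 100% in every library lay within 0.01 of a whole multiple of 1 read, so each is a read count divided by 1 factor per library, and reads were recovered. Of 47460 rows, 1 held no values; identifiers beyond it were not analysed, and no ERCC row was used.

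Values were taken as log2(value + 1), and genes at 5 or more in at least 3 libraries were tested (16104). The test was limma-trend (limma 3.58.1, R 4.3.3), 1 model of 5 group means, two-sided, with Benjamini-Hochberg adjustment over all genes tested, in 9 comparisons. The script was tested on simulated data. Errors are SD for means and SE for log2 fold changes, which understate changes of low genes. Each choice was varied in turn: scaling (TMM, median-ratio, quantile), the pseudocount (0.25 or 5), the filter (none, or 20), a fit of the 2 groups alone, the replicate number as a block, edgeR 4.0.16 and DESeq2 1.42.0 on recovered reads, and libraries left out. Replicates differed by more than counting error (chi-square per degree of freedom 5.30 to 42.2).

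The members and the gene lists were chosen with earlier results of these data known. Named are all 10 members, up to 4 called genes of each list with the smallest p for dCBP-1 against DMSO, CREBBP, EP300, IRF4 and MYC, the 3 genes most correlated with each of CRBN, IKZF1, IKZF3 and ZFP91, and rows overlapping a member.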

Additional observations from a re-analysis of the deposited data

How the results depend on the processing

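Over the 10 genes and 9 comparisons there were 90 results, 26 of them called, and 1570 values under alternatives. Of these values 1480 stayed on the same side of the threshold, 50 became called and 40 lost a call. In 54 a difference that was called in neither setting changed sign, and these are counted among those on the same side. Called differences never changed sign, and 16 of the 26 kept their call in every alternative run. The number of genes called for A-485 against DMSO went from 0 to 1 under TMM, median-ratio and quantile scaling, edgeR and DESeq2, and to between 0 and 2 with 1 library left out (2 without DMSO replicate 3, 1 without A-485 replicate 3). For GNE-781 against DMSO it went from 5 to 3 with no filter, to 3 to 4 with 1 library left out (3 without DMSO replicate 2 or 3 or GNE-781 replicate 1 or 2) and to 2 without DMSO replicates 1 and 2 together. For the combination it went from 5 to 3 without those libraries. Counts against DMSO also went up: to 7 under median-ratio scaling and DESeq2 for GNE-781, to 7 under median-ratio and quantile scaling and DESeq2 for the combination, and from 7 to 9 under quantile normalization for dCBP-1. For dCBP-1 against GNE-781 it went from 3 to 5 under quantile normalization and DESeq2. For GNE-781 against A-485 it went from 0 to 1 under TMM, median-ratio and quantile scaling, edgeR and DESeq2. The causes were not tested, except that fewer libraries were used where some were left out.

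Same-numbered libraries did not deviate together (correlations of -0.53 to 0.30 between groups), and the labels give no pairing. With a replicate block the count was 4 for GNE-781, 4 for the combination and 7 for dCBP-1 against DMSO, and 2 for dCBP-1 against GNE-781. RBX1 with GNE-781 (-0.37, adjusted p = 0.0703) and the combination (-0.38, 0.0518) and CUL4A for dCBP-1 against GNE-781 (-0.54, 0.0535) were then not called, and no other call of the 10 genes changed.

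Over all genes the count called for A-485 against DMSO was 345, and 853 with DESeq2. Without DMSO replicates 1 and 2 it was 12, and 883 in place of 2679 for GNE-781, 1064 in place of 3383 for the combination and 3788 in place of 6092 for dCBP-1. Between GNE-781 and A-485 it was 161, and 393 with TMM scaling, and between dCBP-1 and GNE-781 1500, and 2344 with quantile normalization. No scaling moved the median of all genes by more than 0.0762 on the log2 scale. With 3 libraries per group small differences were not detectable, and at the depth used 0 reads allow up to 3 in a library, for counting error only. One dose and 1 time were measured, without spike-in scaling.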
